A study of Danio rerio with 14 samples.

Results

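The livers of adult zebrafish heterozygous for ahcy were compared with those of wild-type fish on the regular diet. The comparison rests on 7 of the study's 14 arrays, chosen by sample title: 3 of ahcy+/- livers, numbered 3, 7 and 8, and 4 of ahcy+/+ livers, numbered 2, 5, 6 and 9. Both genotypes lived in 1 tank for a month and ate the usual ration, and each array carries total RNA of the liver. The other 7 arrays come from a second tank fed in excess, with 2 ahcy+/- livers and 5 ahcy+/+ livers, and serve here to estimate the spread and to ask whether the genotype difference depended on diet. With 1 tank per diet, diet and tank cannot be told apart. Labels name neither the ahcy allele nor the sex or exact age of a fish, and they do not say whether they had the same parents. The p-values measure the spread among these samples, and their small number limits the precision.

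Ahcy (adenosylhomocysteinase) splits S-adenosylhomocysteine, the product left when a methyltransferase has spent the methyl group of S-adenosylmethionine, into homocysteine and adenosine. Homocysteine is then remethylated to methionine or passed into cysteine synthesis, and a build-up of S-adenosylhomocysteine inhibits many methyltransferases. The liver is the main site of this cycle, and zebrafish larvae that lack ahcy on both chromosomes develop fatty, degenerating livers. The heterozygous adult is a model of reduced gene dose, not of loss.

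Values are the authors' log2 levels of probe sets, groups of short probes for 1 transcript on a single-colour Affymetrix array. A log2 difference below is the ahcy+/- mean minus the ahcy+/+ mean, so a positive value is higher in ahcy+/- livers. The samples held liver markers at high levels: the 18 measured hepatocyte genes had mean levels of 12.06, 11.87 and 11.84 in ahcy+/- livers, against 11.45 to 12.02 in ahcy+/+ livers. Exocrine pancreas genes had a still higher mean on ahcy+/- array 3 (12.54 against 12.06) and ahcy+/+ array 9 (11.97 against 11.45). On the other regular-diet arrays the hepatocyte mean was the higher one. The mean correlation was 0.949 among ahcy+/- arrays, 0.944 among ahcy+/+ arrays and 0.952 between the genotypes. Without ahcy+/+ array 9 it was 0.976 among ahcy+/+ arrays and 0.960 between the genotypes. Array 9 of the ahcy+/+ group stood apart, with a score of 61.8 on the first principal component (42% of the variance) where the other ahcy+/+ arrays lay between -30.6 and -12.7. It was also the lone regular-diet array with high vitellogenins, the yolk precursors that the liver of an egg-laying female makes under oestrogen. The vtg2 level was 5.46, 5.01 and 5.31 in ahcy+/- livers, against 5.26, 5.40, 5.0 and 14.56 in ahcy+/+ livers. Along the next axis, with 22.1% of the variance, ahcy+/- array 7 lay farthest out at 44.9, and it was the highest of the regular-diet arrays in intestine genes. Where leaving out 1 array moved the printed difference of a named gene by over 1.5 times, the value without it, or the range of such values, is given beside it. Differences on a further probe set of a gene, and those after overfeeding, are given without such values.

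The level of ahcy was examined first, to see whether carriers of the mutation held less of its transcript. It was 13.32, 13.18 and 13.27 in ahcy+/- livers, against 13.15, 13.16, 13.23 and 13.08 in ahcy+/+ livers. The groups overlapped, and the ahcy+/- mean was the higher one, at 13.26 ± 0.07 (SD, n = 3) against 13.16 ± 0.06 (SD, n = 4). The difference of 0.10 gave p = 0.143 in an exact permutation test, 2-sided over 35 splits that cannot go below 0.0286. After either scaling, centring or quantile normalization, the difference was 0.04. For the unscaled difference of 0.10 the 95% interval in limma ran from -0.09 to 0.29. A transcript deficit larger than 0.09 on the log2 scale lies outside that interval, which holds for the unscaled values only. The level is near the top of the scale, where the table's highest value is 14.74, and whether the single ahcy probe set lies in a part of the transcript that the mutation alters is not given in the labels. Of the paralogues, ahcyl1 differed by 0.22, and both probe sets of ahcyl2b by 0.11. Leaving out 1 array moved the value of ahcyl1 to between -0.07 and 0.40. For the ahcyl2b probe set of higher level it gave -0.06 to 0.24. Both were lowest without ahcy+/- array 7.

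**Figure D1:**
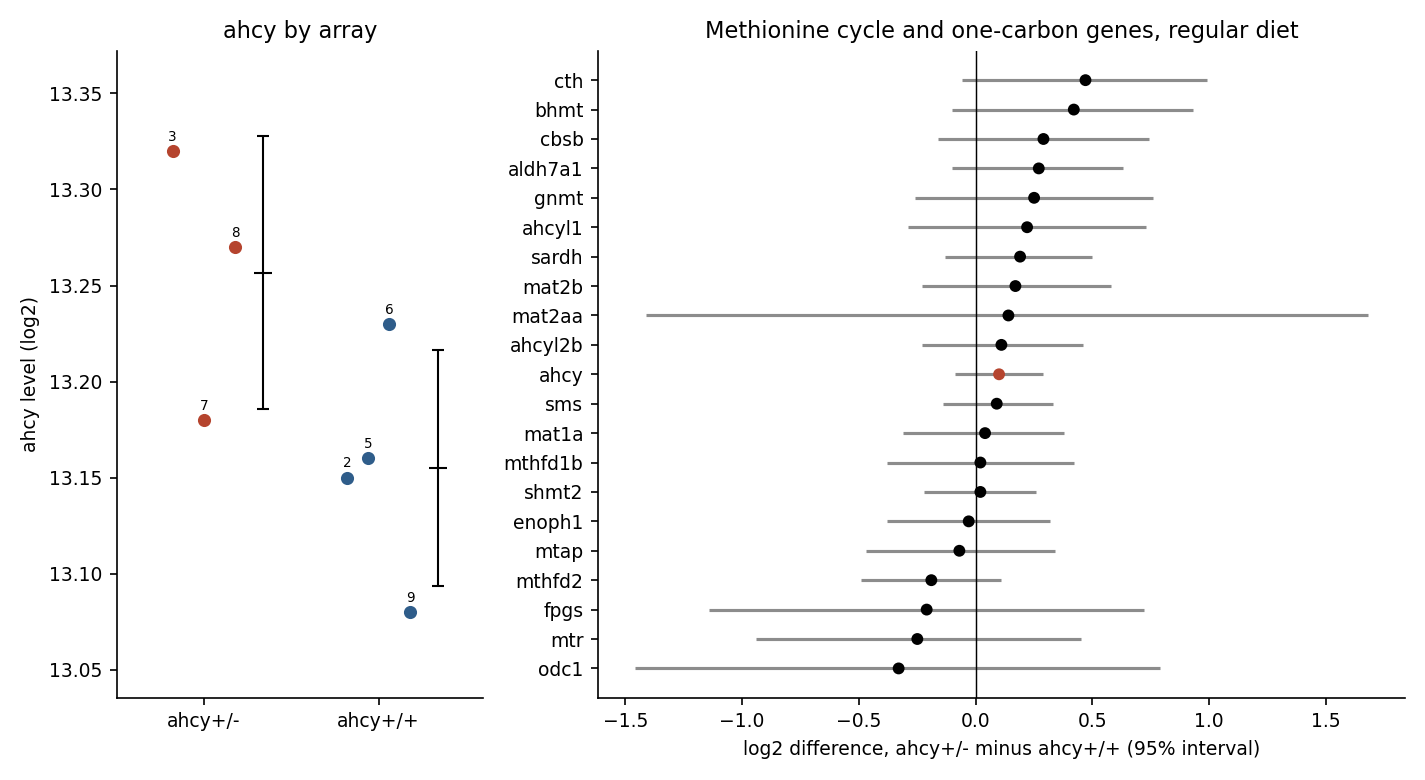
Left, the log2 level of ahcy in each regular-diet array (numbered points), with mean and SD as bars; right, the log2 difference (ahcy+/- minus ahcy+/+) and 95% interval of the 21 measured methionine cycle and one-carbon genes. The ahcy levels overlap between 13.08 and 13.32, and each of the 21 intervals includes 0.

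Around ahcy, the enzymes of the methionine cycle showed no difference that could be told from 0. None of the 21 measured genes had an unadjusted p under 0.05 in limma, beside 2.61% of 8699 genes with 1 probe set each. At such a share a count of 0 in a list of 21 is not unusual. The intervals of 18 of them stayed within 2-fold, and 15 differences were above 0, beside 62.0% of all genes. The median difference was 0.10, or 0.06 without array 9, beside 0.05 over all genes. The largest was that of cth, which makes cysteine from cystathionine. It stood at 10.26, 10.76 and 10.29 in ahcy+/- livers, against 10.03, 10.16, 10.01 and 9.68 in ahcy+/+ livers. All 3 ahcy+/- arrays thus lay above the ahcy+/+ arrays, a separation seen in 2.13% of all probe sets, with a difference of 0.47 ± 0.24 (SE), which was 0.31 without ahcy+/- array 7. For bhmt, which remethylates homocysteine with betaine, the levels were 13.59, 13.74 and 13.66 in ahcy+/- livers, against 13.56, 13.41, 13.64 and 12.37 in ahcy+/+ livers. Here array 9 set the difference, which was 0.42 with it and 0.13 without it. Among the other enzymes, cbsb (cystathionine synthesis) differed by 0.29, and by 0.08 without ahcy+/- array 8 or 0.19 without ahcy+/+ array 9. The difference of gnmt, the glycine methyltransferase that buffers S-adenosylmethionine in liver, was 0.25, and 0.02 without array 9 or 0.14 without ahcy+/- array 8. The liver methionine adenosyltransferase mat1a differed by 0.04 and the methionine synthase mtr by -0.25, and both signs turned without array 9, to -0.09 and 0.06. Leaving out other arrays put mat1a between -0.0 and 0.11 and mtr between -0.43 and -0.12.

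Across the whole array no probe set passed. In limma, 0 of 15134 had an adjusted p under 0.05 (0.0%), and the smallest adjusted p was 1.0. At an unadjusted p under 0.05 there were 459 (3.03%), 365 higher (2.41%) and 94 lower (0.621%) in ahcy+/- livers. At an unadjusted p under 0.001 there were 3 (0.0198%). The 3 ahcy+/- arrays lay above all 4 ahcy+/+ arrays on 323 probe sets (2.13%) and below all of them on 137 (0.905%). Of the 35 ways to split these arrays into 3 and 4, 1 puts the 3 highest together, a share of 0.0286. A lack of overlap does not by itself set a gene apart. The comparison was nevertheless tight for most probe sets, with a median standard error of 0.17. The 95% interval lay within 2-fold for 13797 probe sets (91.2%) and within 1.5-fold for 9815 (64.9%). These shares include probe sets of low level, as only 9513 were above 6 on at least 2 arrays. Among the pathway lists the number within 2-fold ran from 2 of 11 for cholesterol genes to all 66 cytosolic ribosomal protein genes. The distribution leaned upwards, since 62.7% of differences were above 0 with a median of 0.05, and centring each array on its median brought that median to 0. The genes below are therefore described by their values, with no call. They are the 24 named genes with the smallest unadjusted p, 19 higher and 5 lower in ahcy+/- livers, all with an adjusted p of 1.0 in limma and the last with an unadjusted p of 0.00595.

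**Figure D2:**
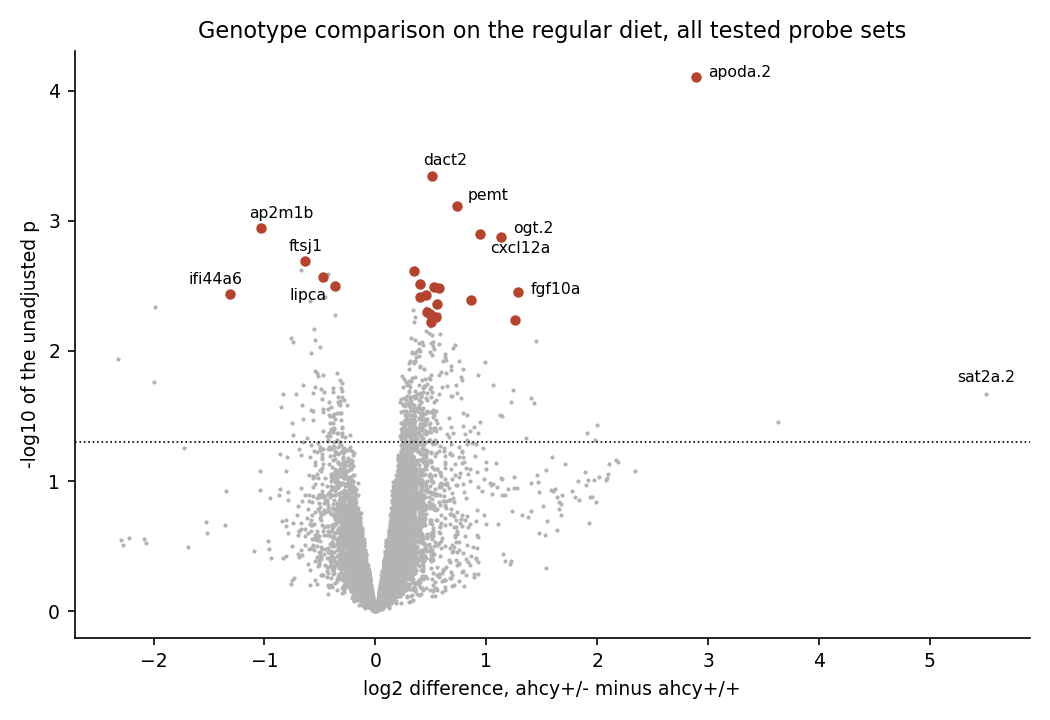
Each point is 1 of the 15134 tested probe sets, with its log2 difference (ahcy+/- minus ahcy+/+) across and the -log10 of limma's unadjusted p upwards; red points are the 24 named genes and the dotted line is an unadjusted p of 0.05. Differences are mostly small, apoda.2 has the smallest p at 7.9e-05, and sat2a.2 has the largest difference at 5.51.

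The smallest p belonged to a gene of lipid transport, and pemt, lipca and acot17, which also act on lipids, were among the 24. The apolipoprotein D gene apoda.2, which encodes a secreted lipocalin that carries small lipids, stood at 11.66, 9.04 and 9.73 in ahcy+/- livers, against 6.20, 7.62, 7.76 and 7.44 in ahcy+/+ livers. Every ahcy+/- array was above every ahcy+/+ array, array 3 by the most. The difference was 2.89 ± 0.51 (SE; 95% interval 1.78 to 3.99), or 7.39-fold, and it ranged from 2.13 without ahcy+/- array 3 to 3.44 without ahcy+/- array 7. Within ahcy+/- livers its order by array was that of the exocrine pancreas markers (mean levels 12.54, 10.83 and 11.75), while ahcy+/+ array 9, at 11.97 for those markers, had 7.44. With mean pancreas and intestine levels as covariates the apoda.2 difference was 2.38. The part of pancreas RNA in it was not tested. The gene pemt makes phosphatidylcholine, a membrane and lipoprotein lipid, by methylating phosphatidylethanolamine with S-adenosylmethionine, and each methyl transfer releases the substrate of Ahcy. Its level was 7.14, 6.81 and 7.11 in ahcy+/- livers, against 6.08, 6.46, 6.22 and 6.34 in ahcy+/+ livers. These groups were clear of each other, with means of 7.02 ± 0.18 (SD, n = 3) and 6.28 ± 0.16 (SD, n = 4). The difference of 0.74 (0.38 to 1.11) was 0.68 to 0.85 when any 1 array was left out. Hepatic lipase, lipca, which trims triglyceride and phospholipid from lipoproteins, was the lower one of the set, with 10.41, 10.75 and 10.53 in ahcy+/- livers, against 11.06, 10.99, 11.14 and 10.92 in ahcy+/+ livers. Its groups did not overlap and differed by -0.47 (-0.74 to -0.19). The acyl-CoA thioesterase gene acot17 differed by 0.86 with overlapping groups, its ahcy+/- levels being 4.55, 3.43 and 4.67, against 3.40, 3.29, 3.06 and 3.69 in ahcy+/+ livers. Without array 7 of the ahcy+/- group and array 9 of the ahcy+/+ group, a choice made after seeing the data, acot17 alone passed in limma, with a difference of 1.36 and an adjusted p of 0.0143. Over the alternative fits its adjusted p ran from that value to 1.0. The 2 arrays left out held its lowest ahcy+/- level (3.43) and its highest ahcy+/+ level (3.69), so the gap had to widen without them. That fit is therefore no separate support for a difference, and the acot17 levels lie around the filter of 4.

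**Figure D3:**
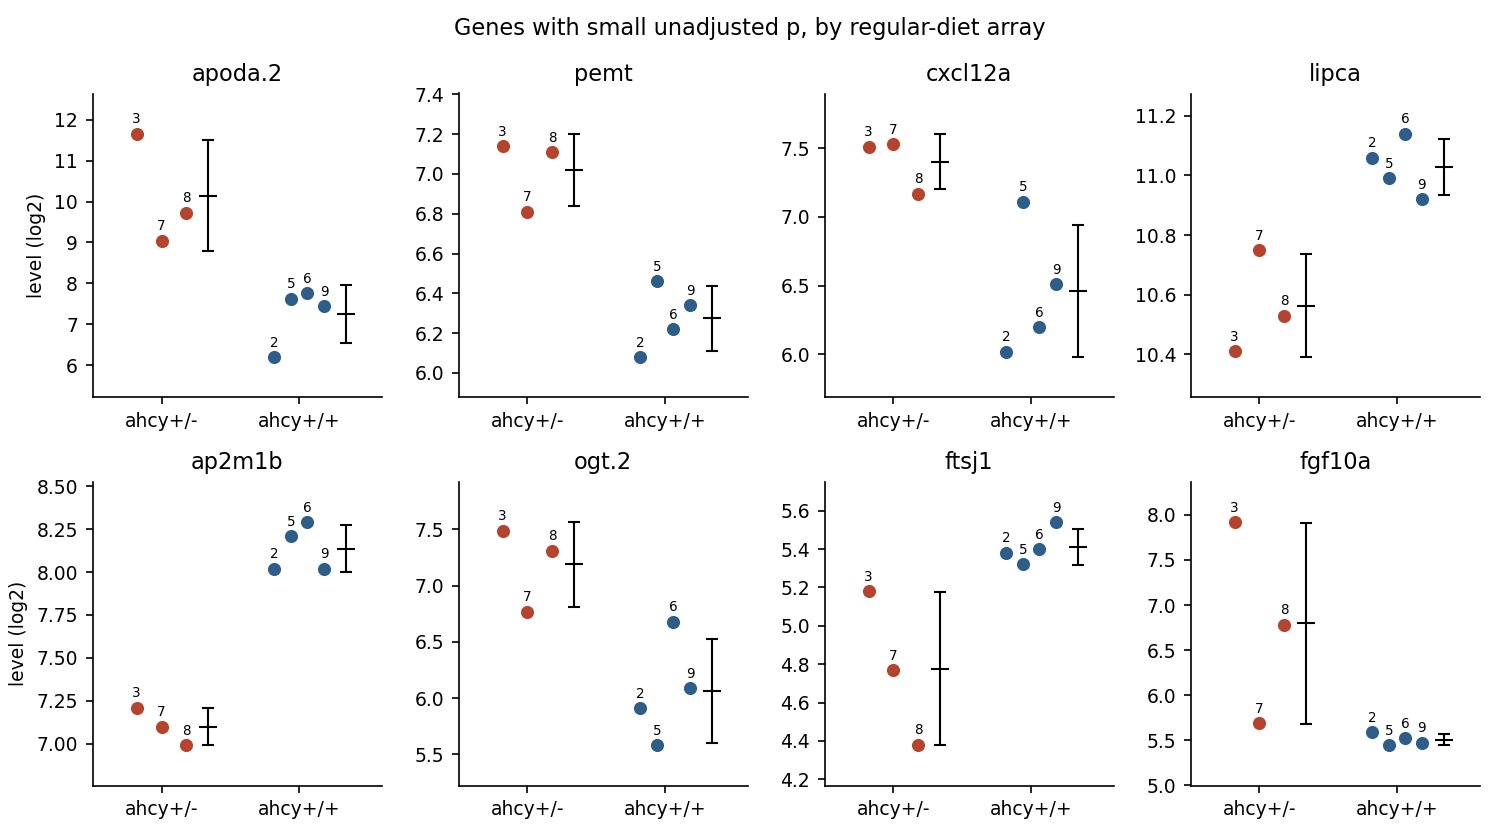
Log2 levels of 8 of the named genes in each regular-diet array (points, numbered as in the labels; ahcy+/- left, ahcy+/+ right), with the mean and SD beside each group; the vertical axes differ between panels and do not start at 0. In every panel the groups do not overlap, and apoda.2 and fgf10a have their highest level in ahcy+/- array 3.

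Among signalling genes, cxcl12a encodes the chemokine ligand of Cxcr4, which guides migrating cells. Its level was 7.51, 7.53 and 7.17 in ahcy+/- livers, against 6.02, 7.11, 6.20 and 6.51 in ahcy+/+ livers, where array 5 came close to the ahcy+/- arrays. The difference was 0.94 ± 0.23 (SE), and a second probe set of the gene gave 0.43 ± 0.31 with overlapping groups. Its paralogue cxcl12b lay the same way, by 0.44 ± 0.18, again without overlap. The growth factor gene fgf10a had 7.92, 5.69 and 6.78 in ahcy+/- livers, against 5.59, 5.44, 5.52 and 5.47 in ahcy+/+ livers. Its difference of 1.29 leaned on array 3 and was 0.73 without it. The ahcy+/- arrays ranked for fgf10a as they did for exocrine pancreas genes (12.54, 10.83 and 11.75), whereas ahcy+/+ array 9, high in pancreas genes at 11.97, had 5.47 for fgf10a. With pancreas and intestine levels as covariates the fgf10a difference was 1.07, and here too the part of pancreas RNA was not tested. The Dapper family gene dact2, an intracellular antagonist of Nodal and Wnt signals, was narrow in both groups, with 4.38, 4.31 and 4.33 in ahcy+/- livers, against 3.89, 3.67, 3.79 and 3.94 in ahcy+/+ livers. These levels are close to the low end of the table, and the difference was 0.51 ± 0.11 (SE). Only the regular-diet ahcy+/- arrays were above the filter of 4. The gene was thus tested only because of the group where it is high.

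For ap2m1b and ogt.2 the probe sets of the gene gave unlike values. One probe set of ap2m1b, a subunit of the AP-2 adaptor that loads cargo into clathrin-coated vesicles, read 7.21, 7.10 and 6.99 in ahcy+/- livers, against 8.02, 8.21, 8.29 and 8.02 in ahcy+/+ livers. That is a gap of -1.03 ± 0.25 (SE) with no overlap and little spread within each genotype on the regular diet. In overfed livers this probe set read 7.85 and 8.18 in ahcy+/-, against 8.29, 7.08, 7.28, 7.81 and 8.15 in ahcy+/+. The overfed ahcy+/+ levels thus reached down into the regular-diet ahcy+/- range. On the regular diet the other ap2m1b probe set, at a higher level, differed by -0.15 ± 0.12. Likewise ogt.2, which attaches O-linked N-acetylglucosamine to intracellular proteins, read 7.49, 6.77 and 7.31 in ahcy+/- livers, against 5.91, 5.58, 6.68 and 6.09 in ahcy+/+ livers on one probe set. This gave 1.13 ± 0.28 (SE), while its other probe sets gave 0.02 and -0.08. The glycosyltransferase gene b3gnt7 differed by 0.57 and the peptidase gene naalad2 by 0.53, both without overlap, and neither has a second probe set. The b3gnt7 levels were 4.14, 4.17 and 4.38 in ahcy+/- livers, against 3.70, 3.33, 3.64 and 3.96 in ahcy+/+ livers. They lie at the filter of 4, which b3gnt7 passed largely through the group where it is high.

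Several of the 24 act on RNA or nucleotides. This grouping, like that of the lipid genes above, only orders the description. The share of such genes among all tested genes was not counted. The tRNA ribose methyltransferase gene ftsj1, whose product also uses S-adenosylmethionine, stood at 5.18, 4.77 and 4.38 in ahcy+/- livers, against 5.38, 5.32, 5.40 and 5.54 in ahcy+/+ livers. The ahcy+/- levels were lower and more scattered, with a difference of -0.63 ± 0.17 (SE). The adenosine deaminase adarb1a, which edits RNA, was higher by 0.49, the helicase gene ighmbp2 by 0.56 and the mitochondrial transcription factor gene tfb2m by 0.47, although the other probe sets of tfb2m gave 0.01 and -0.10. Adenylate kinase ak1 differed by 0.55 with overlapping groups, and the nucleoside diphosphate kinase nme2b.2 by 1.26. The nme2b.2 gene belongs to the skeletal muscle list, and its levels of 6.57, 8.92 and 7.26 in ahcy+/- livers, against 6.45, 6.44, 6.03 and 6.37 in ahcy+/+ livers, followed that list, whose mean levels were 6.19, 6.75 and 6.34 against 6.16, 6.16, 6.05 and 6.14. Array 7 was the highest for both, the nme2b.2 difference was 0.59 without it, and the part of muscle RNA was not tested. The interferon-induced gene ifi44a6 was lower in ahcy+/- livers, with 3.41, 3.74 and 2.98, against 4.52, 5.11, 4.16 and 4.95 in ahcy+/+ livers. The difference was -1.31 ± 0.37 (SE) at levels near the filter of 4, and it was -0.06 in the fit with the replicate number as a block. Others of the 24 were gstcd (-0.36), ccdc102a (0.40), tubb5 (0.40), tmem161b (0.46) and tmem144b (0.50). The other probe sets of ccdc102a gave 0.31, -0.11 and 0.08, and the other one of tubb5 gave -0.0.

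Gene lists for liver pathways were described by their counts beside those over 8699 genes with 1 probe set each, of which 62.0% were above 0, 2.61% had an unadjusted p under 0.05 (2.15% higher, 0.46% lower), 2.01% had all ahcy+/- arrays above the ahcy+/+ arrays and 0.931% had all below. No list member passed after adjustment over all probe sets in limma. Among 24 measured methyltransferases that use S-adenosylmethionine, 16 were above 0 with a median of 0.06, and pemt alone had an unadjusted p under 0.05. The intervals of 23 of them stayed within 2-fold. The next smallest p belonged to the de novo DNA methyltransferase dnmt3bb.2, at -0.33 ± 0.18 (-0.54 without ahcy+/- array 8), and to the creatine-forming gamt, at 0.34 ± 0.21 (0.10 without array 9). Adenosine and purine metabolism, which takes up the other product of Ahcy, had 8 of 18 genes above 0, a median of -0.02 and no gene with an unadjusted p under 0.05.

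**Figure D4:**
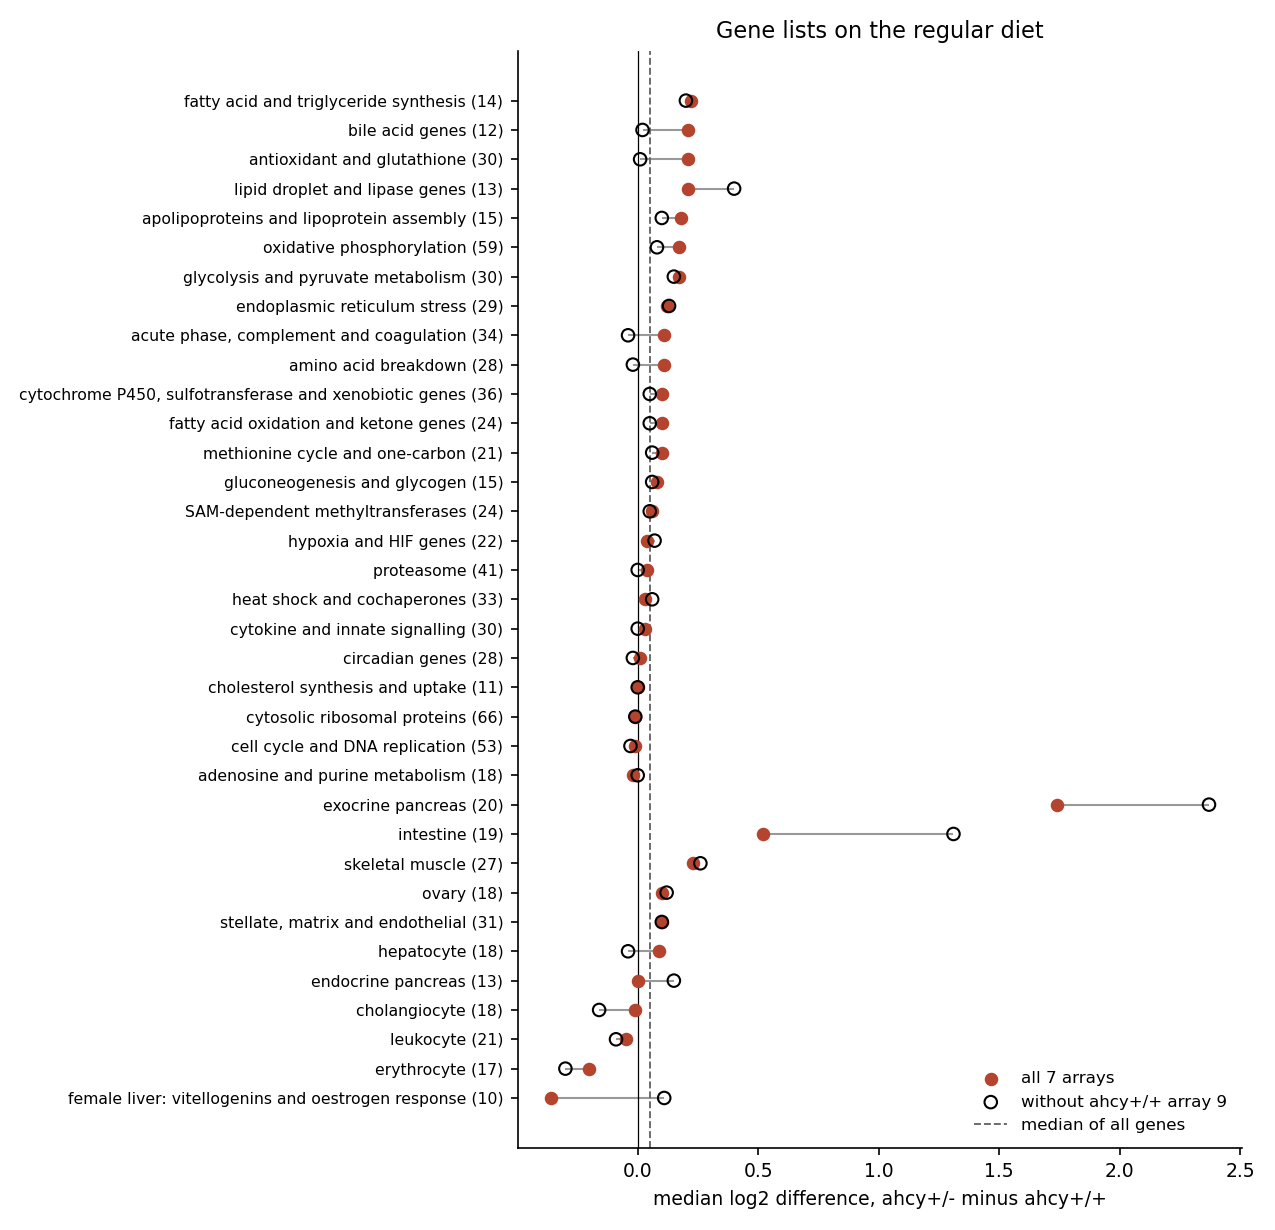
Median log2 difference (ahcy+/- minus ahcy+/+) of each gene list, with the number of measured members in brackets, over all 7 regular-diet arrays (red) and without ahcy+/+ array 9 (open circles); the dashed line is the median of all genes. Most pathway medians lie between 0 and 0.22, while the exocrine pancreas list stands at 1.74 and moves to 2.37 without array 9.

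For fat metabolism, the question a steatosis study raises, the list of fatty acid and triglyceride synthesis had 10 of 14 genes above 0 and a median of 0.22, with none at an unadjusted p under 0.05. Malic enzyme me1, a source of reducing power for fat synthesis, differed by 0.62 ± 0.30 and acetyl-CoA carboxylase acaca, the committing step, by 0.58 ± 0.38. The acaca value was 0.09 without ahcy+/- array 8 and 0.30 without ahcy+/+ array 2. Both pairs of groups overlapped, and intervals were wide here: 8 of the 14 stayed within 2-fold. Cholesterol synthesis and uptake had 5 of 11 above 0 and a median of -0.0, but only 2 of the 11 intervals stayed within 2-fold. Changes of that size were thus not excluded for most of the list. The gene insig1, which holds back sterol synthesis, was at -0.60 ± 0.37. The insig1 value was -0.27 without ahcy+/- array 8 and -1.06 without ahcy+/- array 3. Fatty acid oxidation had 17 of 24 above 0, a median of 0.10 (0.05 without array 9) and no gene at an unadjusted p under 0.05. All 15 apolipoprotein and lipoprotein genes were at or above 0, with a median of 0.18, and without array 9 there were 10 above 0 with a median of 0.10. Beside apoda.2, apoa1a, the main protein of high-density lipoprotein, stood at 13.65, 13.95 and 13.90 in ahcy+/- livers, against 13.31, 13.24, 13.55 and 13.12 in ahcy+/+ livers. Its groups did not overlap, and the difference was 0.53 ± 0.17 (SE; limma's unadjusted p = 0.00963). Of the 13 lipid droplet and lipase genes 10 were above 0, and lipca was the single one with an unadjusted p under 0.05.

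In oxidative phosphorylation 55 of 59 genes were above 0, with a median of 0.17. That median was 0.11 after centring, 0.06 after quantile normalization (40 of 59 above 0) and 0.08 without array 9 (45 of 59). The succinate dehydrogenase subunit sdhb was its single gene with an unadjusted p under 0.05, at 0.36 ± 0.12. Glycolysis had 25 of 30 above 0 and a median of 0.17, which was 0.07 after quantile normalization and 0.07 without arrays 9 and 7. Its enzymes gpib (0.36) and pgam1a (0.46) had an unadjusted p under 0.05, and pgam1a was at 0.22 without array 9. Gluconeogenesis had 11 of 15 above 0 with a median of 0.08, against 6 of 15 and -0.08 after quantile normalization, and g6pc1a.2, the phosphatase that releases glucose, lay below all ahcy+/+ arrays, by -0.35 ± 0.12. The antioxidant list had 25 of 30 above 0 and a median of 0.21, which was 0.01 without array 9, with gpx4b, a lipid peroxide reductase, at 0.50, or 0.24 without ahcy+/- array 7. Amino acid breakdown had 19 of 28 above 0, but 13 of 28 without array 9 and 12 of 28 after quantile normalization, with a median of -0.02 in both. It includes the aspartate aminotransferase got1 at 0.68 ± 0.24. Among cytochrome P450 and related genes 22 of 36 were above 0, with cyp3a65, an intestinal and hepatic drug-metabolising enzyme, at 0.47 ± 0.20 (0.27 without ahcy+/- array 7).

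Stress, growth and immune lists gave few small p-values. The 66 cytosolic ribosomal protein genes ran from -0.10 to 0.13 with a median of -0.01, and the intervals of all 66 lay within 2-fold. The cell cycle list had 24 of 53 above 0 and 1 gene at an unadjusted p under 0.05, gins3 of the replication helicase, at -0.30. Proteasome genes had a median of 0.04 and endoplasmic reticulum stress genes one of 0.12, neither with a gene at an unadjusted p under 0.05. Acute phase, complement and coagulation genes had 26 of 34 above 0, but 11 of 34 without array 9, where the median was -0.04 in place of 0.11. Its member crp, the acute phase C-reactive protein gene, had 13.19, 13.43 and 13.27 in ahcy+/- livers, against 11.99, 13.39, 12.22 and 9.22 in ahcy+/+ livers. The groups overlapped at ahcy+/+ array 5, and the difference was 1.59 ± 0.79, or 0.76 without array 9. The haem scavenger hpxb lay below all ahcy+/+ arrays, by -0.50 ± 0.27. Cytokine and innate signalling had 18 of 30 above 0, and after cxcl12a and cxcl12b the antiviral mxa had an unadjusted p under 0.05, at 0.30, or 0.18 without ahcy+/- array 8.

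Markers of tissues next to the liver varied widely from array to array. All 20 exocrine pancreas genes were higher in ahcy+/- livers, with a median difference of 1.74, yet 0 had an unadjusted p under 0.05 and 0 separated the groups. Their mean levels were 12.54, 10.83 and 11.75 in ahcy+/- livers, against 8.72, 9.97, 9.75 and 11.97 in ahcy+/+ livers. The ahcy+/+ array 9 exceeded 2 of the 3 ahcy+/- arrays, and without it the median difference was 2.37. The carboxypeptidase genes cpa1 and cpb1 differed by 2.34 ± 1.25 and 1.89 ± 1.01, and sycn.2, a secretory granule gene, by 2.11 ± 1.09. In zebrafish the exocrine pancreas lies diffusely beside the liver and gut, and in bulk RNA more cells of a type and more RNA per cell cannot be told apart. With the mean pancreas and intestine levels as covariates 0 probe sets passed in limma.

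**Figure D5:**
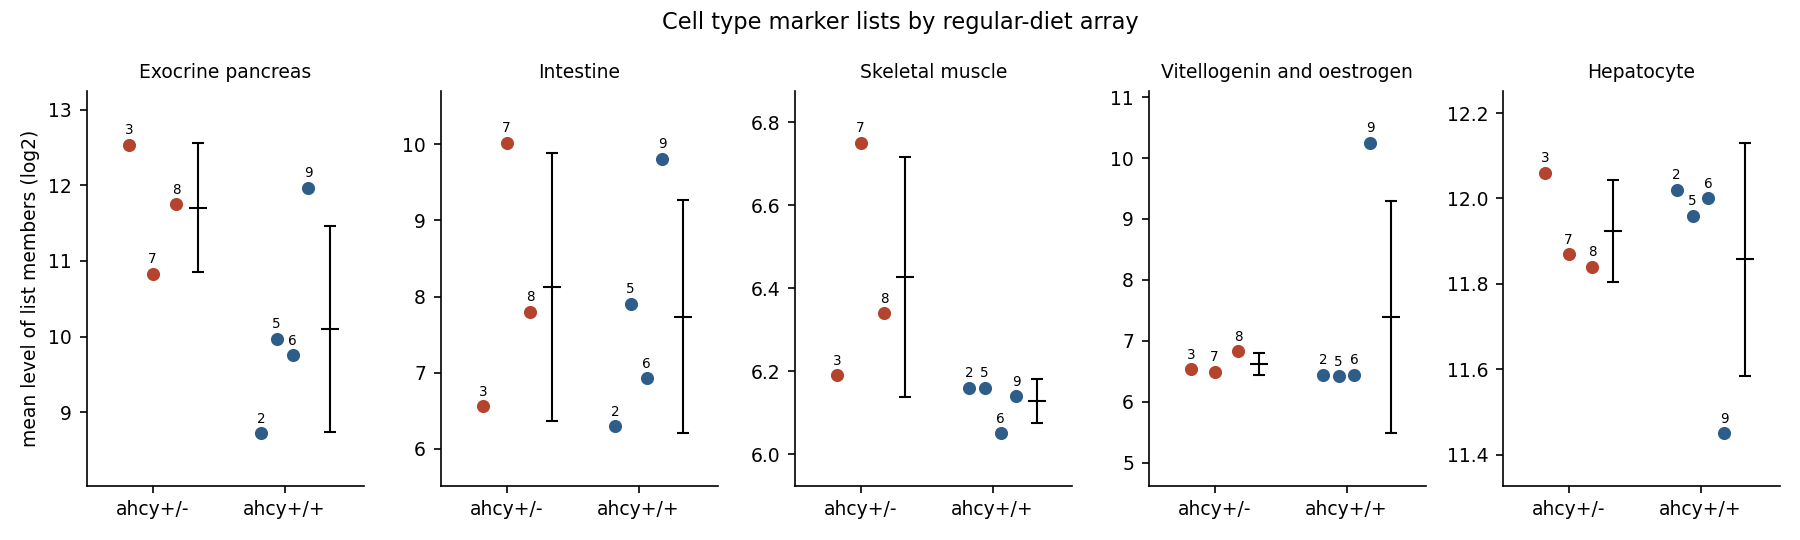
Mean log2 level of the measured members of 5 marker lists in each regular-diet array (numbered points; ahcy+/- left, ahcy+/+ right), with the mean and SD beside each group; the vertical axes differ between panels and do not start at 0. Exocrine pancreas levels overlap through ahcy+/+ array 9, intestine levels are highest in ahcy+/- array 7 and ahcy+/+ array 9, and only ahcy+/+ array 9 is high in the vitellogenin list.

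Intestine genes split the arrays within each genotype, with mean levels of 6.56, 10.02 and 7.80 in ahcy+/- livers, against 6.30, 7.91, 6.93 and 9.81 in ahcy+/+ livers. Of the 19 measured, 17 were higher in ahcy+/- livers, with a median of 0.52 that became 1.31 without array 9 and 0.16 without arrays 9 and 7. Of the 27 skeletal muscle genes 22 were above 0, with a median of 0.23, and 1 separated the groups. This list had the most members at a small unadjusted p, 7 of 27 under 0.05, beside 2.61% of 8699 genes. These included the contractile genes acta1a (0.63), mylpfa (0.99) and tnnc2.2 (0.63), and in each ahcy+/- array 7 was the highest. Without it they were at 0.30, 0.42 and 0.29. The vitellogenin and oestrogen list had a median of -0.36 with array 9 and 0.11 without it, and the oestrogen receptor gene esr1 stood at 8.46 there, against 5.36 to 5.72 in the other 6 arrays. Erythrocyte genes had 12 of 17 below 0 and a median of -0.20, with the carbonic anhydrase gene cahz at -1.04 ± 0.55 (-1.65 without ahcy+/+ array 9 and -0.59 without ahcy+/+ array 6). Of the stellate, matrix and endothelial genes 21 of 31 were above 0, and the endothelial plvapb had an unadjusted p under 0.05, at 0.68, or 0.36 without ahcy+/- array 7. Leukocyte genes had a median of -0.05 and none at that threshold.

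Few differences were large. At least 2-fold were 105 probe sets (0.694%), 86 higher and 19 lower in ahcy+/- livers, and 22 of them belonged to the exocrine pancreas list and 6 to the vitellogenin list. The largest, singled out after its value was seen, was sat2a.2, a gene of the spermidine/spermine acetyltransferase family. Its level was 11.35, 10.62 and 6.54 in ahcy+/- livers, against 2.89, 6.24, 3.31 and 3.53 in ahcy+/+ livers. The groups did not overlap, though ahcy+/- array 8 and ahcy+/+ array 5 nearly met, and the difference was 5.51 ± 2.11 (SE; 95% interval 0.95 to 10.07). High and low livers occurred among overfed fish too, with 3.09 and 3.04 in ahcy+/- livers, against 2.92, 2.96, 2.93, 12.12 and 9.70 in ahcy+/+ livers, so that the high ones were ahcy+/+ there.

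A heterozygous fish also carries the stretch of chromosome linked to the mutation, so the genes around ahcy were looked up in a RefSeq gene table. Of the 20 measured genes nearest to it, 10 on each side, 0 had an unadjusted p under 0.05. Their differences ran from -0.54 to 0.27 with a median of 0.06, and 13 were above 0. One of them, vapb, which anchors the endoplasmic reticulum to other membranes and was named after its value was seen, had ahcy+/- arrays above all ahcy+/+ arrays, by 0.20 ± 0.11 (0.13 without ahcy+/- array 7). On the whole chromosome 17 of 389 measured genes (4.37%) had an unadjusted p under 0.05, against 2.55% of genes on the other chromosomes.

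The overfed tank gave the same genotype contrast on arrays that the regular-diet contrast does not use, though both share limma's estimate of the spread. There too 0 probe sets passed in limma, 260 had an unadjusted p under 0.05 (1.72%), and the smallest adjusted p was 0.631. The 2 overfed ahcy+/- arrays were unlike each other, with vtg2 at 13.46 and 7.30 and exocrine pancreas means of 11.85 and 7.25, which limits this comparison. Of the 459 probe sets with a small p on the regular diet, 241 had the same sign after overfeeding (52.5%), beside 53.0% of all probe sets. Among the 24 named genes 12 kept their sign, and of these none had an unadjusted p under 0.05 after overfeeding. The level of apoda.2 was 6.06 and 5.28 in overfed ahcy+/- livers, against 5.26, 5.47, 5.81, 5.43 and 5.24 in overfed ahcy+/+ livers, a difference of 0.23. Each of these overfed levels was below the lowest regular-diet level, 6.20. For pemt the levels were 6.58 and 6.45 in overfed ahcy+/- livers, against 7.27, 6.94, 6.68, 6.74 and 6.48 in overfed ahcy+/+ livers, a difference of -0.31. The lipca difference kept its sign, at -0.22, with 10.72 and 10.76 in overfed ahcy+/- livers, against 10.72, 10.85, 10.98, 11.18 and 11.08 in overfed ahcy+/+ livers. The ifi44a6 difference was 1.14 after overfeeding, opposite to that on the regular diet. The difference between the genotype contrasts of both diets was itself tested, and 0 of 15134 probe sets passed in limma, with 289 at an unadjusted p under 0.05 (1.91%) and a smallest adjusted p of 1.0.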

How the data were processed

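RNA was hybridised to a single-colour Affymetrix array, per the labels. The deposited values, 1 per probe set and array, were read as the authors' log2 levels from their range of 0.46 to 14.74 and array medians of 5.96 to 6.12. Per the submitters' processing notes GCRMA and Partek were used, with neither version nor role stated. Scanner files were not used here. Of 15617 probe sets, 115 controls were left out and 368 not above 4 on at least 2 arrays were removed. Gene symbols are those of GEO's platform annotation, of which 10711 found their Entrez number in RefSeq's gene table and 1 was renamed. Of the probe sets without controls, 10795 have 1 gene, 135 several and 4572 none. A model of 4 group means without covariates used all 14 arrays (limma 3.58.1 under R 4.3.3, functions lmFit and eBayes, 10 residual and 3.06 prior degrees of freedom), with Benjamini-Hochberg adjustment over the 15134 tested probe sets and a threshold of 0.05. Intervals are limma's 95% intervals. The ahcy level was compared by a 2-sided exact permutation test. The fit was tested on simulated data.

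Lists use 1 probe set per gene, that with the highest mean over the 14 arrays. The comparison, the lists and the rule for named genes were chosen with earlier results of these data known. As fewer than 10 genes passed, that rule took those of smallest unadjusted p until 24 were reached, each by its probe set with the smallest p, then ahcy, its paralogues, the methionine cycle list, vitellogenins and esr1, and from each list at most the 4 members of smallest p. Probe sets with no single gene or a placeholder symbol were counted, not named. The values of 1 of the 24 genes are not reported here. Alternatives were other filters, variance moderation, the regular-diet arrays alone, array weights, both scalings, covariates, the replicate block, fits without each regular-diet array in turn and a fit on 1 probe set per gene. No overfed array was left out in turn. Plots were made in Python 3.11.15 using matplotlib 3.10.9.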

Additional observations from a re-analysis of the deposited data

Results flagged for a closer look

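Of 60 values examined in the 4 regular-diet ahcy+/+ arrays, 5 had a sample far from the others by Dixon's ratio, where chance flags about 1 in 20. Array 9 was the far sample in 4 of them. It was high in the vitellogenin and oestrogen list (mean level 10.25) and low in the hepatocyte list (11.45), in the acute phase, complement and coagulation list (10.53) and in tmem144b (4.69). Array 6 was apart in the mean level of the cytosolic ribosomal protein list (13.22). Groups of 3 arrays were not examined in this way.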

How the results depend on the processing

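Over 19 alternative fits the count of probe sets past the threshold stayed at 0 except without the 2 arrays highest in intestine genes (1, acot17, 1.36), a choice made after seeing the data. Those 2 arrays held the lowest ahcy+/- and the highest ahcy+/+ level of acot17, so its gap had to widen without them. All 439 values of the 24 named genes in the 19 fits kept their sign, which was largely fixed in advance. The genes were chosen for small p-values in these same arrays. For the 16 higher and 5 lower ones whose groups do not overlap, leaving out arrays cannot turn the sign. Other filters and variance moderation leave the difference itself unchanged. The ahcy difference was above 0 in the 9 alternatives run for it, with an exact permutation p of 0.486 after either scaling. With 1 array left out that p was 0.0667 to 0.333, in designs too small to pass: it was at its smallest possible value without ahcy+/- array 7 (0.0667) and without ahcy+/+ array 6 (0.1). The count at an unadjusted p under 0.05, 459 as reported, was 193 with the filter at 6, 286 with the regular-diet arrays alone, 1197 with array weights, 828 with the vitellogenin covariate, 911 with pancreas and intestine covariates, 228 with 1 probe set per gene and 1804 without those 2 arrays. Leaving out 1 array gave 358 to 1062, with 933 without ahcy+/+ array 9 and 1062 without ahcy+/- array 7. The interaction count was 1 with no low-value filter. The causes were not tested. With the replicate number as a block, 0 probe sets passed and 373 had an unadjusted p under 0.05; ahcy+/- and ahcy+/+ fish of the regular diet share no number, so the numbers do not pair them. Some genes that never passed changed sign: mat1a was -0.04 with array weights, -0.15 after quantile normalization, -0.02 after centring, -0.09 with the vitellogenin covariate, -0.43 with the replicate block and -0.07 without the 2 arrays. With the block gnmt was -0.27, mtr 0.63 and vtg2 0.93, and without the 2 arrays vtg2 was 0.17 and esr1 0.13. Leaving out 1 array gave -0.09 to 0.11 for mat1a, -0.43 to 0.06 for mtr and -0.07 to 0.40 for ahcyl1. It gave -0.06 to 0.24 for the ahcyl2b probe set of higher level, -3.15 to 0.04 for vtg2 and -0.99 to 0.05 for esr1.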
